A study of Mus musculus with 6 samples.

Results

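miR-214 and miR-199 are microRNAs (miRNAs), small RNAs that pair with messenger RNAs and lower their output. This account follows 3 of them through their probes, 2org-214 (miR-214), 1org-199-s (miR-199-s) and 2org-199b (miR-199b), chosen by probe ID from the 178 probes of a two-colour array, of which 171 are miRNA probes and 7 are for other small RNAs. They were chosen with their ratios in these samples known, so those ratios are a description and carry no test. A further 2 miR-199 probes, 1org-199-as (miR-199-as) and 2org-199a (miR-199a), are given beside them. Total RNA of mouse CD4+CD25+ natural regulatory T cells was hybridised together with that of conventional CD4+CD25- T cells on 6 arrays, which stand for 3 biological replicates, each also hybridised with its dyes swapped, per the series design. On arrays 1, 3 and 5, called the Cy5 arrays here, the CD4+CD25+ RNA was labelled with Cy5, and on arrays 2, 4 and 6, the Cy3 arrays, with Cy3. Ratios of the Cy3 arrays were multiplied by -1. Strain, age, treatment, the sorting gates, whether replicates came from separate animals, and which arrays make up a replicate are not stated in the labels used here.

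Every value is a log2 ratio of regulatory (CD4+CD25+) to conventional (CD4+CD25-) cells, a difference between the cell types and not a level. It reads the deposited log ratio as Cy5 over Cy3 and its base as 2, and neither is stated with the values. With the opposite reading every sign turns. If the Cy3 arrays had been turned before deposit, the means would be -0.45 ± 1.48 for miR-214, -1.21 ± 0.445 for miR-199-s and -1.13 ± 0.431 for miR-199b. Arrays of opposite dye, as deposited, correlated at -0.369 to 0.251 over the 171 miRNA probes (9 pairs of arrays). Arrays of one orientation correlated at 0.521 to 0.622 (Cy5 arrays) and at 0.901 to 0.918 (Cy3 arrays). Means carry the SD over 3 replicates, each the mean of 2 arrays of opposite dye, and since the pairs are not labelled, the largest SD over the 6 possible pairings is given. Signal over background is not known for any probe, so dim probes, the miR-199 probes included, could not be told from bright ones. The number of arrays limits the precision, and the presence of the markers of either cell type could not be checked from ratios alone.

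miR-214 and miR-199a are processed from hairpins in one long noncoding transcript, Dnm3os, which runs opposite to the dynamin 3 gene and is best known from mesenchymal and stromal cells, where the transcription factor Twist1 drives it. miR-214 is also known from T cells, where it is induced by activation. miR-199a and miR-199b come from separate genes, each lying opposite to a dynamin gene, and are counted as one family.

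The hairpins show which of these miRNAs share a transcript and which share a sequence. In RefSeq (GRCm38.p6), the 110-base hairpins of Mir199a-2 (chr1:162217814-162217923, plus strand) and Mir214 (chr1:162223368-162223477, plus strand) lie inside the noncoding gene Dnm3os, with 5444 bases between them. The 70-base hairpin of Mir199a-1 (chr9:21496495-21496564, minus strand) overlaps Dnm2, and the 110-base hairpin of Mir199b (chr2:32318460-32318569, plus strand) overlaps Dnm1. So "one transcript" applies to miR-214 and to one of the miR-199a genes, and not to miR-199b. The hairpins are printed 5′ to 3′ with the mature strands that RefSeq lists in capitals.
Mir214: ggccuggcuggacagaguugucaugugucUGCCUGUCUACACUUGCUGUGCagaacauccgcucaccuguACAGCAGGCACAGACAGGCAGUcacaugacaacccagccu
Mir199a-2: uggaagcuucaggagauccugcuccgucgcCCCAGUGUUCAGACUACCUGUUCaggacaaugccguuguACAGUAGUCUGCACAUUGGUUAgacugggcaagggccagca
Mir199a-1: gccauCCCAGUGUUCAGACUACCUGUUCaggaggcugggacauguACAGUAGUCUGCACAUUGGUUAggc
Mir199b: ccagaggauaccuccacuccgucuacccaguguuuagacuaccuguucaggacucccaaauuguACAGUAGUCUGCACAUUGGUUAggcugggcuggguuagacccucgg

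The mature strands, with the seed (bases 2 to 8, the part that pairs with targets) in capitals, show how alike the miR-199 strands of different genes are and that miR-214 does not share their seeds.
miR-214-3p: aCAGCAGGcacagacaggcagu
miR-214-5p: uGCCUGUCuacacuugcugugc
miR-199a-5p: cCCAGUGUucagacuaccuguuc
miR-199a-3p: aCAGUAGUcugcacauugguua
miR-199b-3p: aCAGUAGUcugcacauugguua
Mir199a-1 and Mir199a-2 give the same mature strands, so no probe for them can tell the gene beside Mir214 from the other. The 3′ strands of miR-199a and miR-199b were identical over 22 of 22 bases. Over the 23 bases of miR-199a-5p, the Mir199b hairpin differed by 1 base, C10U, counted from 1 at the 5′ end of miR-199a-5p, which lies outside the seed. In the RefSeq table of mouse miRNAs used here the seed of miR-214-3p was shared with miR-761 alone, and that of miR-199a-3p with miR-199b-3p alone. miR-214-3p and miR-199a-3p had 5 of 7 seed bases in common at the same positions, so their seeds differ. Probe sequences were not used here. In older naming, s and as mark the strands of a hairpin, so the miR-199-s and miR-199-as probes stand for opposite strands by name, and which strand the miR-214, miR-199a and miR-199b probes bind is not stated.

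The mean ratio of the miR-214 probe was above that of each miR-199 probe, and none of those reads Mir199a-2 alone. The gap was not large on every array, with miR-214 minus miR-199-s at 0.045 and miR-214 minus miR-199a at -0.17 on array 4. On the Cy5 arrays (1, 3 and 5) the miR-214 log2 ratio was 3.36, 0.23 and 3.79, and on the Cy3 arrays (2, 4 and 6) it was 4.27, 1.93 and 3.90. It was above 0 on 6 of 6 arrays, high on 4 of them and low on arrays 3 and 4, the lowest of each orientation. The mean was 2.91 ± 1.60 (SD, n = 3), or 7.53-fold. Among the 171 miRNA probes it ranked second on arrays 1, 2, 5 and 6, behind miR-223, a miRNA best known from myeloid cells, but 38th on array 3 and 14th on array 4. Its SD ranked first of the 171 probes, whose median SD was 0.460.

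The miR-199-s probe, named for a strand of the miR-199a hairpin, had log2 ratios of -0.042, -0.36 and 0.38 on arrays 1, 3 and 5 and of 2.92, 1.89 and 2.45 on arrays 2, 4 and 6. It lay around 0 on the Cy5 arrays and well above 0 on the Cy3 arrays, and the orientations did not overlap. The array medians of all miRNA probes split the same way. In limma, 63.2% of all miRNA probes had a dye effect with the larger ratio on the Cy3 arrays. The mean of miR-199-s was 1.20 ± 0.444 (SD, n = 3), with 4 of 6 arrays above 0. Its rank among the miRNA probes ran from 6th on array 2 to 96th on array 3, and its mean ranked 18th.

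The next probe is named for miR-199b, the family member from the Dnm1 locus. Whether it also reads the near-identical strands of miR-199a is not known. Its log2 ratios were 0.42, -0.58 and 0.023 on arrays 1, 3 and 5 and 2.48, 1.77 and 2.42 on arrays 2, 4 and 6. The same split by dye was seen, with 5 of 6 arrays above 0 and a mean of 1.09 ± 0.442 (SD, n = 3). Its mean ranked 32nd of 171.

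The remaining miR-199 probes also had means below that of miR-214. The miR-199-as probe had 1.06, -0.30 and 0.32 on arrays 1, 3 and 5 and 2.10, 1.72 and 1.91 on arrays 2, 4 and 6, with a mean of 1.14 ± 0.437 (SD, n = 3). The probe named miR-199a had -1.29, -1.12 and -0.83 on arrays 1, 3 and 5 and 2.85, 2.10 and 2.37 on arrays 2, 4 and 6. It was below 0 on all 3 arrays of one orientation and above 0 on all 3 of the other, so its mean of 0.68 ± 0.305 (SD, n = 3) describes neither.

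**Figure D1:**
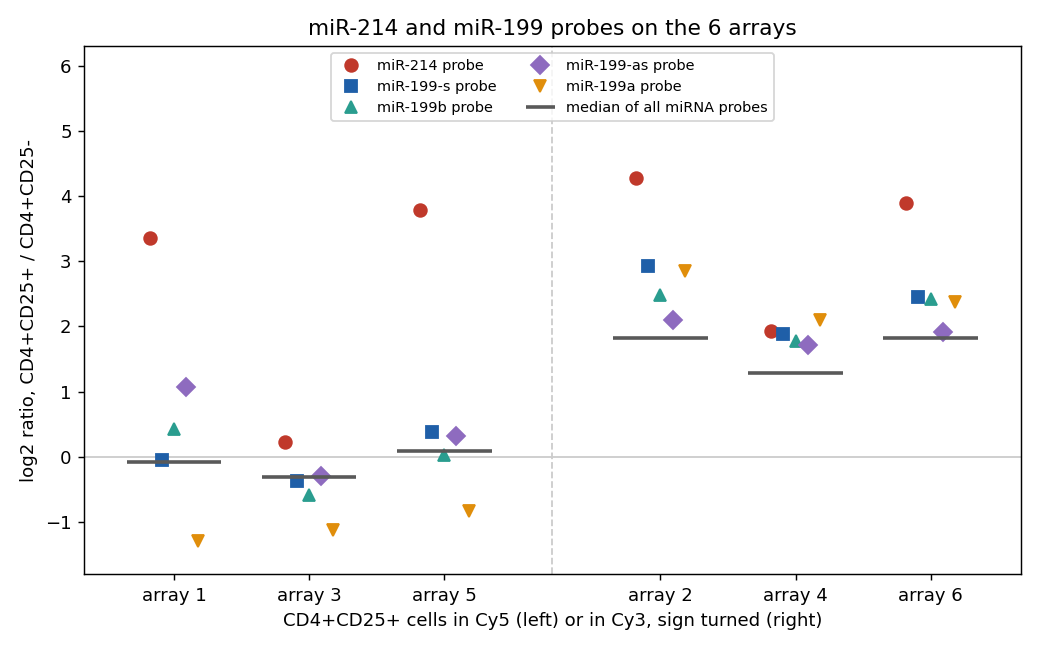
Log2 ratio of regulatory to conventional T cells (vertical axis) for the miR-214 probe and the 4 miR-199 probes on each of the 6 arrays, the Cy5 arrays on the left and the Cy3 arrays, sign turned, on the right. Each symbol is 1 probe on 1 array and the grey bar is the median of the 171 miRNA probes. miR-214 stands above the miR-199 probes on arrays 1, 2, 5 and 6 and comes down to 0.23 on array 3 and 1.93 on array 4, among or near them.

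The median miRNA probe was itself far from 0. Array medians were -0.085, -0.31 and 0.097 on arrays 1, 3 and 5 and 1.83, 1.29 and 1.82 on arrays 2, 4 and 6, and the median of the probe means was 0.82. Relative to its array median, miR-214 had 3.44, 0.54 and 3.69 on arrays 1, 3 and 5 and 2.44, 0.64 and 2.08 on arrays 2, 4 and 6. Its mean then was 2.14 ± 1.35 (SD, n = 3), above the median on 6 of 6 arrays, as were 5.85% of all miRNA probes.

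Relative to the array median, miR-199-s and miR-199b had smaller ratios than miR-214 on every array. miR-199-s had 0.043, -0.052 and 0.28 on arrays 1, 3 and 5 and 1.09, 0.60 and 0.63 on arrays 2, 4 and 6, with a mean of 0.43 ± 0.223 (SD, n = 3). miR-199b had 0.51, -0.27 and -0.074 on arrays 1, 3 and 5 and 0.65, 0.48 and 0.60 on arrays 2, 4 and 6, with a mean of 0.32 ± 0.240. The mean of miR-199-as was 0.36 ± 0.382. miR-199a stood at -1.21, -0.81 and -0.93 on arrays 1, 3 and 5, among the lowest probes there (ranks 169, 161 and 164 of 171), and at 1.02, 0.82 and 0.55 on arrays 2, 4 and 6 (ranks 10, 8 and 44), so that its mean of -0.094 ± 0.221 again describes neither orientation.

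In limma over all 171 miRNA probes, a call needed a Benjamini-Hochberg adjusted p below 0.05 in all 6 pairings. With the arrays turned and not centred, 67.3% of the probes were called higher in CD4+CD25+ cells and 8.77% lower, and all of miR-214, miR-199-s and miR-199b were among the higher calls, as were miR-199-as and miR-199a. With every array centred on its median miRNA probe, 5.26% were called higher and 22.8% lower. miR-214 was then the only one of these 5 probes called in limma, and after centring on off-tissue probes, those for miRNAs of unrelated tissues, the same held, with 2.92% of all probes called higher. Had the Cy3 arrays been turned before deposit, 1.75% of the probes would be called higher and 51.5% lower in limma, with miR-199-s and miR-199b among the lower calls and miR-214 not called. These calls come from the contrast the probes were chosen on, so nothing is read from them.

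The question posed by a shared transcript is whether the ratios move together array by array. miR-214 minus miR-199-s was 3.40, 0.59 and 3.41 on arrays 1, 3 and 5 and 1.35, 0.045 and 1.45 on arrays 2, 4 and 6. The difference of the log2 ratios was thus largest on arrays 1 and 5, smaller on arrays 2 and 6 and smallest on arrays 3 and 4, where miR-214 came down towards the miR-199-s ratio. Its mean was 1.71 ± 1.20 (SD, n = 3), above 0 on 6 of 6 arrays. This difference does not depend on centring, and scale normalization gave 1.84.

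miR-214 minus miR-199b gave the same picture, with 2.93, 0.81 and 3.77 on arrays 1, 3 and 5 and 1.80, 0.16 and 1.48 on arrays 2, 4 and 6, and a mean of 1.82 ± 1.19 (SD, n = 3). Against miR-199-as the mean difference was 1.78 ± 1.26, above 0 on 6 of 6 arrays. Against miR-199a it was 2.23 ± 1.43, above 0 on 5 of 6 arrays, with -0.17 on array 4. In contrast, miR-199-s minus miR-199b was between -0.47 and 0.45 on every array, with a mean of 0.12 ± 0.313, so these 2 miR-199 probes differed by less than the spread between replicates.

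**Figure D2:**
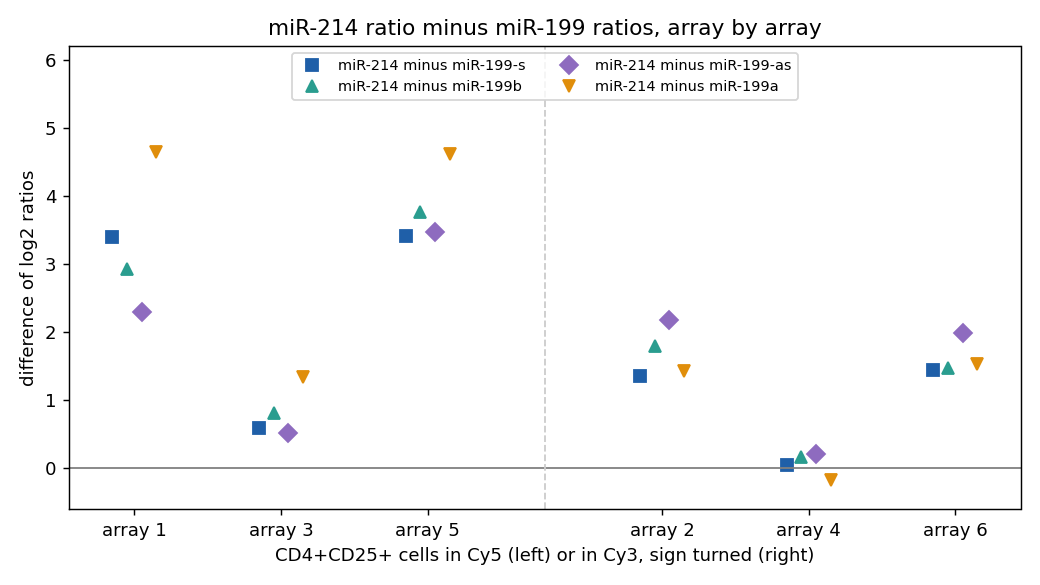
The log2 ratio of miR-214 minus that of each miR-199 probe (vertical axis) on each array, the Cy5 arrays on the left and the Cy3 arrays on the right. Each symbol is 1 difference on 1 array and the line marks 0, where both probes have the same ratio. The differences are 2.29 to 4.65 on arrays 1 and 5, 1.35 to 2.17 on arrays 2 and 6, and -0.17 to 1.34 on arrays 3 and 4.

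The order of the arrays was partly shared. Within each orientation, miR-214, miR-199-s, miR-199b and miR-199-as had their lowest ratio on arrays 3 and 4. This order was common, with 65 of the 171 miRNA probes (38.0%) lowest on the same arrays, as the array medians also were. Relative to the array median, miR-214, miR-199-s and miR-199b kept arrays 3 and 4 as their lowest, together with 13.5% of all miRNA probes, and miR-199-as and miR-199a did not.

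The size of the swing was not shared. Relative to the array median, miR-214 spanned 3.15 between its highest and lowest Cy5 array and 1.80 between its highest and lowest Cy3 array, ranks 1 and 4 among the 171 probes. miR-199-s spanned 0.33 and 0.49, and miR-199b spanned 0.78 and 0.16. The median probe spanned 0.83 and 0.58, so neither miR-199-s nor miR-199b spanned more than the median probe in either orientation.

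As a description of likeness, each probe's values relative to the array median were taken as deviations from its mean within each dye orientation and correlated over the 6 arrays, which are 3 replicates and share their RNA in pairs. miR-214 and miR-199-s had r = 0.64 and miR-214 and miR-199b had r = 0.65. Of the 170 other miRNA probes, 20 correlated better with miR-214 than miR-199-s did, and 19 better than miR-199b. miR-199-as had r = 0.40 with miR-214 and miR-199a had r = -0.35. Within the family miR-199b and miR-199-as had r = 0.90, while miR-199-s and miR-199b had r = 0.13, although their ratios were close.

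By the root mean square difference of ratios relative to the array median over the 6 arrays, the 5 probes most like miR-214 were miR-207 (1.48), miR-223 (1.56), miR-297 (1.58), miR-146 (1.77) and miR-147 (1.79). No probe was near it, and the miR-199 probes came 16th (miR-199-as), 21st (miR-199-s), 29th (miR-199b) and 123rd (miR-199a) of 170. miR-207, the nearest, had log2 ratios of 0.87, -0.63 and 2.01 on arrays 1, 3 and 5 and of 2.81, 1.39 and 3.07 on arrays 2, 4 and 6, again lowest on arrays 3 and 4. miR-223 differed from miR-214 mainly on array 3, where it stood at 3.54 against 0.23.

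The probes most like miR-199-s were miR-1b (0.235), a muscle miRNA, miR-129 (0.237), miR-211 (0.293), miR-34a (0.315) and miR-199b (0.317). Those most like miR-199b were miR-295 (0.183), an embryonic stem cell miRNA, miR-95 (0.206), miR-216 (0.208), miR-34a (0.237) and miR-204 (0.253), with miR-199-s at rank 12. The nearest neighbours of the miR-199 probes thus included probes for miRNAs known from tissues other than T cells. miR-214 was at rank 142 of 170 for miR-199-s and at rank 146 for miR-199b.

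With the arrays turned, the dye column is orthogonal to the contrast the probes were chosen on, and it was tested in limma over all 171 miRNA probes on 6 arrays. Had the Cy3 arrays been turned before deposit, this column would hold the cell contrast itself, and its p-values would then be no test of the dye. A dye effect was called for 70.2% of the probes, and for 63.2% the ratio was larger on the Cy3 arrays. miR-199-s averaged -0.0093 ± 0.372 (SD, n = 3) on the Cy5 arrays and 2.42 ± 0.517 on the Cy3 arrays, a difference of -2.43 (SE 0.438; limma adjusted p = 4.23e-05). miR-199b averaged -0.044 ± 0.505 and 2.22 ± 0.392, a difference of -2.27 (SE 0.438; limma adjusted p = 8.89e-05). Both miR-199 means therefore came from one dye orientation. The fit takes 6 arrays as separate although pairs of them share RNA.

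For miR-214 the orientations were 2.46 ± 1.94 and 3.37 ± 1.26 (SD, n = 3 each), a difference of -0.91 (SE 0.659; limma adjusted p = 0.206), which did not pass. That difference had a sign that turned with the centring, 0.84 (SE 0.630; limma adjusted p = 0.292) relative to the array median. After median centring the dye effects of miR-199-s (-0.68, SE 0.322; limma adjusted p = 0.0912) and miR-199b (-0.52, SE 0.330; limma adjusted p = 0.21) did not pass either, while 45.6% of all probes did. miR-199a kept its dye effect, with -3.52 (SE 0.426; limma adjusted p = 5.09e-07) before centring and -1.77 (SE 0.321; limma adjusted p = 0.000123) after centring. miR-199-as had -1.55 (SE 0.444; limma adjusted p = 0.0034) before centring, which was also the median over all miRNA probes, and 0.20 (SE 0.354; limma adjusted p = 0.662) after centring.

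**Figure D3:**
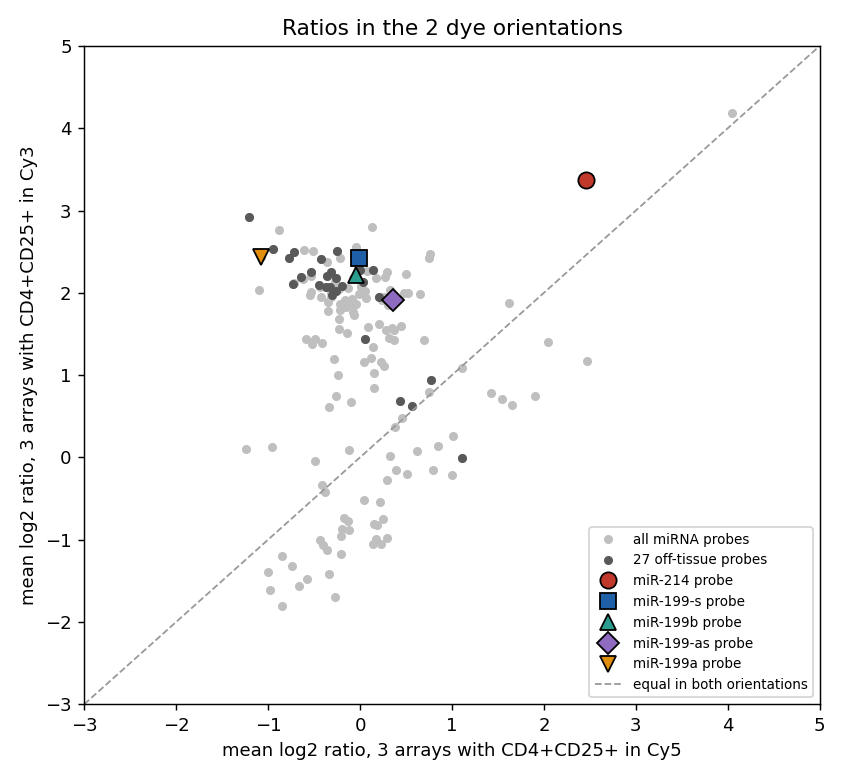
Mean log2 ratio over the 3 Cy5 arrays (horizontal axis) against that over the 3 Cy3 arrays (vertical axis) for each of the 171 miRNA probes, with 27 off-tissue probes darker and the dashed line where both are equal. miR-214 lies near the line at 2.46 and 3.37, while miR-199-s at -0.0093 and 2.42 and miR-199b at -0.044 and 2.22 lie in the group of the darker probes.

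A set of 27 off-tissue probes, for miRNAs known from embryonic stem cells, liver, muscle, epithelium and the nervous system, gave a reference for the miR-199 values. Their means had a median of 0.86 and ran from 0.55 (miR-200c) to 1.21 (miR-133), and their median was -0.31 on the Cy5 arrays and 2.14 on the Cy3 arrays. The means of the 4 miR-199 probes all lay within that range. By its mean, miR-199-s, at 1.20, lay above 26 of the 27, miR-199b above 24 and miR-199a above 3. On single arrays these counts ran from 16 to 26 for miR-199-s, from 11 to 23 for miR-199b and from 0 to 24 for miR-199a. The miR-214 mean lay above all 27, and its array values lay above all 27 on arrays 1, 2, 5 and 6 and above 23 of 27 on arrays 3 and 4.

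The other miRNAs known from stromal or endothelial cells did not stand with miR-214. Of 11 such probes, 9 were called higher before centring (background 67.3%) and 2 did not pass, with a median of 0.82 equal to that of all miRNA probes. Relative to the array median 1 was called higher (background 5.26%), 1 was called lower (22.8%), and the other 9 failed the test. The list's median was 0.050, and that of the 27 off-tissue probes was 0.089. Signal over background is not known, so whether these probes could report RNA of stromal cells was not tested. The one called higher was miR-126*, a strand of the endothelial miR-126 hairpin, at 0.59 ± 0.338 (SD, n = 3; limma adjusted p = 0.025), and the one called lower was miR-195 at -0.79 ± 0.241 (limma adjusted p = 0.00299). miR-143 and miR-145, the smooth muscle and fibroblast pair, stood at -0.18 ± 0.661 and 0.21 ± 0.561 relative to the median, and neither passed (limma adjusted p = 0.618 and 0.473).

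Of the Dlk1-Dio3 cluster, an imprinted group of miRNAs also known from mesenchymal cells, 6 members were measured. All 6 were called higher before centring (background 67.3%), with means from 0.82 (miR-127) to 1.02 (miR-154), and 0 of 6 were called higher in limma relative to the array median (background 5.26%, with 0 of the 6 at an unadjusted p under 0.05), where they ran from 0.044 to 0.25. The myeloid list held miR-223 alone, at 4.12 ± 0.855 (SD, n = 3), or 3.34 ± 0.654 relative to the median. The lymphocyte list of 8 probes had 4 called lower (background 8.77%) and 1 higher (67.3%) before centring, the latter being miR-155 at 1.23 ± 0.453 (limma adjusted p = 0.00569). Relative to the median it had 6 called lower (background 22.8%) and 0 higher (5.26%) in limma (1 higher at an unadjusted p under 0.05), from miR-142* at -2.06 ± 0.252 to miR-155 at 0.46 ± 0.362, which then did not pass (limma adjusted p = 0.0883). Whether other cells in either sort had a part in the miR-214 ratio was not tested, and a ratio cannot tell more cells of a type from more RNA per cell.

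The remaining lists lay around the median. Relative to it, the epithelial probes ran from -0.22 (miR-200c) to 0.31 (miR-205), the muscle probes from 0.081 (miR-206) to 0.44 (miR-133), the neural probes from -0.030 (miR-128) to 0.30 (miR-124a) and the embryonic stem cell probes from -0.082 (miR-302) to 0.36 (miR-291-as). The liver probe miR-122a stood at 0.089 and the erythroid probe miR-144 at -0.079. Of the 27 off-tissue probes, 0 were called relative to the array median in limma (1 at an unadjusted p under 0.05), and miR-144 was not called either.

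**Figure D4:**
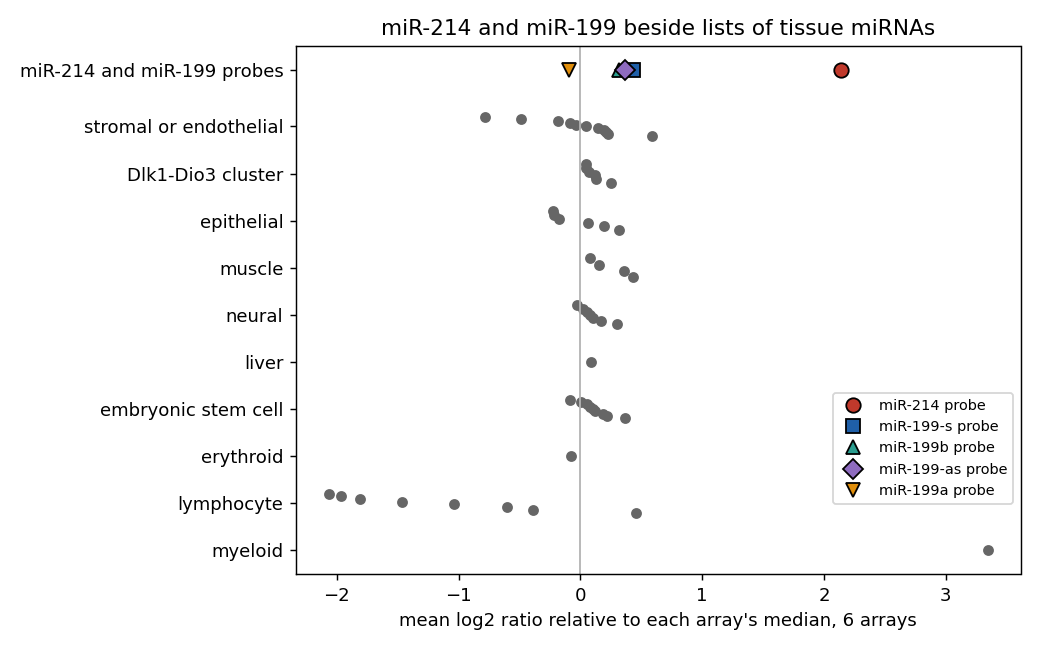
Mean log2 ratio relative to each array's median over the 6 arrays (horizontal axis) for the miR-214 and miR-199 probes in the top row and for the members of each list of tissue miRNAs in the rows below, 1 point per probe. miR-214 at 2.14 stands apart from the miR-199 probes, which run from -0.094 to 0.43, and from the stromal or endothelial probes, which run from -0.79 to 0.59.

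To set the distance between miR-214 and miR-199 beside that of other miRNAs made close together, probes were matched by number to RefSeq hairpins, which 122 of the 171 miRNA probes allowed. A total of 58 pairs of probes, apart from those of miR-214 and miR-199, were for different hairpins within 10000 bases on one strand. Their mean log2 ratios differed by a median of 0.17, against 0.51 for all 14535 pairs of miRNA probes. The pairs share probes and are not independent. They include pairs of off-tissue probes, whose means ran only from 0.55 to 1.21, so such pairs could differ little without being made together. The median of 0.17 therefore does not show how far a shared transcript keeps ratios together. The 1.71 between miR-214 and miR-199-s was reached or passed by 3 of the 58, namely miR-17-3p with miR-19a (2.34), let-7c with miR-99a (1.94) and miR-18 with miR-19a (1.81), named after their values were seen. Of 9 pairs of probes for a single hairpin, none reached it, and the largest difference was 1.57. Matched by number, miR-214 formed a neighbouring pair with the miR-199a probe only. The names of the miR-199-s and miR-199-as probes carry no gene letter and matched no hairpin, so these probes could form no pair. The pair of miR-214 and miR-199a was 2.23 apart, a distance passed among the 58 by miR-17-3p with miR-19a alone. Since miR-214 was chosen with its ratio known, the place of its distances among these pairs is a description and carries no test.

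**Figure D5:**
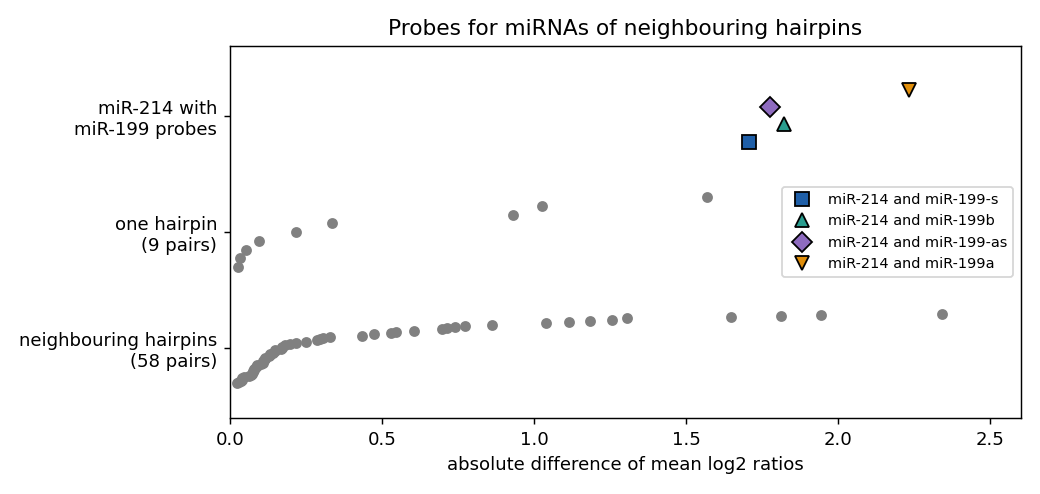
Absolute difference of the mean log2 ratios of 2 probes (horizontal axis) for 58 pairs from neighbouring hairpins, 9 pairs from a single hairpin and miR-214 paired with each miR-199 probe, 1 point per pair and rows spread vertically for legibility. The pairs with miR-214 lie between 1.71 and 2.23, against a median of 0.17 for the neighbouring hairpins. Of the pairs with miR-214, only that with miR-199a (2.23) met the rule for neighbouring hairpins, and the miR-199-s and miR-199-as probes matched no hairpin by name.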

How the data were processed

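The authors deposited 1 log ratio per probe and array, taken here as log2. Its log base, direction, background correction and normalization are not stated with the values. The array medians (-0.118, -1.78, -0.304, -1.26, 0.081 and -1.79 for arrays 1 to 6 over all 178 probes as deposited) show that arrays were not centred on the median of these probes. Ratios with CD4+CD25+ in Cy3 were multiplied by -1. Names follow the probe IDs, since the platform table names 0 of the 5 miR-214 and miR-199 probes. The cell comparison was fitted with limma (version 3.58.1, R 4.3.3; lmFit, eBayes) on 3 means of opposite arrays under all 6 pairings, and the dye column on 6 arrays. P-values set a mean ratio or a dye difference against the spread between these samples, which may be technical. With 3 replicates an exact two-sided sign-flip p is at least 0.25, so that test was left out.

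On simulated data (171 probes, 20 simulations) the cell comparison recovered 63.7% of changes of 1 and 96.8% of changes of 2 on the log2 scale, with 2.43% false calls, and the dye fit 88.0% of effects of 2. The simulated noise was independent between probes and no array was shifted as a whole. The real array medians did shift, so these shares need not hold for the real fits, least of all without centring. Alternatives were 2 centrings, scale normalization, no turning, single orientations, a fit with a dye column and leaving out pairs of opposite arrays. The members and lists were chosen with earlier results of these data known. Named probes were these 3, the other miR-199 probes, the 5 most like each, the ends of each list and miR-223. miR-143 and miR-145 and the neighbouring pairs fall outside that rule.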

Additional observations from a re-analysis of the deposited data

Results flagged for a closer look

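The ratio differed between the dye orientations for 4 of these 5 probes, by limma's test of the dye column. The difference, Cy5 arrays minus Cy3 arrays, was -2.43 for miR-199-s, -2.27 for miR-199b, -1.55 for miR-199-as and -3.52 for miR-199a, where 70.2% of all miRNA probes had such an effect. The effect was thus common and not particular to these probes, and after median centring only miR-199a kept it among them. Had the Cy3 arrays been turned before deposit, this difference would be the cell contrast. No group of arrays was large enough to look for a single array far from the others.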

How the results depend on the processing

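No label ties a Cy5 array to a Cy3 array, so no single replicate block could be fitted, and the cell comparison was instead made paired under each of the 6 possible pairings. miR-214 kept its sign under each alternative except no turning (-0.45) and moved by less than its SD otherwise, with 2.35 to 3.83 when a pair of opposite arrays was left out. It was 3.83 without arrays 3 and 4. miR-199-s and miR-199b moved with the centring (median, 0.43 and 0.32; off-tissue probes, 0.28 and 0.16) and with the dye orientation. They were -0.0093 and -0.044 on the Cy5 arrays alone, 2.42 and 2.22 on the Cy3 arrays alone, and -1.21 and -1.13 without turning. Leaving out a pair of arrays gave 0.98 to 1.43 for miR-199-s and 0.91 to 1.34 for miR-199b. The causes were not tested.

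The limma count over all 171 miRNA probes was 130 (115 higher, 15 lower), 48 after median centring (9 and 39), 43 after off-tissue centring (5 and 38), 19 on the Cy5 arrays alone (12 and 7), 91 without turning (3 and 88, the opposite direction), and 0 to 127 with a pair of arrays left out. Leaving out arrays 3 and 2 gave 0 calls, with 98 probes at an unadjusted p below 0.05. Leaving out arrays 5 and 6 gave 2 calls, 1 and 2 gave 59, 1 and 6 gave 64, and 5 and 2 gave 80. Dye effects numbered 120 (12 larger on the Cy5 arrays), 78 after median centring (58 larger on the Cy5 arrays) and 82 to 120 with a pair left out. Scale normalization gave 2.84, 1.00 and 0.90 for the 3 probes and moved the median of all probe means from 0.82 to 0.63. Signal over background is unknown, so dim probes could not be left out.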
